A study of Homo sapiens with 9 samples.

Results

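MicroRNA loci are the stretches of the genome that carry a microRNA hairpin, and their transcript clusters on a whole-transcript array were followed here in MM.1S cells, a line grown from human multiple myeloma, a cancer of plasma cells. A transcript cluster is the set of probes that the array reads as 1 transcribed unit. A cluster was taken as a microRNA locus where its annotation held exactly 1 symbol and that symbol was MIR with a number or MIRLET7, with symbols of host genes (ending in HG) left out. Of the 70523 clusters, 1087 met this rule under 1040 symbols. The locus was described further where its value lay above the median of the array on at least 3 of the 9 arrays. This left 452 loci under 430 symbols, of which 385 lay above the median on all 9 arrays and 67 on 3 to 8. The 635 others stayed below this limit, 608 of them on every array. At the limit itself, 7 clusters passed with 3 arrays, their values running from 4.38 to 5.84, and 10 stayed out with 2 arrays, their values running from 4.14 to 5.69.

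The cells were kept for 24 h with 5 nM HL13, with 5 nM LBH589 or with DMSO, a solvent. LBH589 is the name given during development to panobinostat, which inhibits histone deacetylases, and HL13 is known here by its code alone. Each group had 3 arrays, named by the labels as biological replicates of 1 cell line, without saying which cultures they came from. The p values therefore rest on the spread among 3 samples a group, part of which may be technical. Values are log2 array values, so that a difference of 1 is a 2-fold difference, and the medians of the arrays lay between 5.33 and 5.38. All 10 plasma cell markers measured lay above the array median on every array. Of 8 T and NK cell markers, CD3D, CD3G and IL7R lay below it on every array and 5 above it on every array, and of 6 myeloid markers, CD14 and LYZ lay below it and 4 above it. Of these 10 plasma cell markers, 9 fell and 1 rose under HL13 against DMSO in the test described below, and under LBH589 as well. Over all clusters tested, 28.5% fell and 29.6% rose under HL13, and 26.1% and 28.0% under LBH589. The part of these markers in the values of the microRNA loci was not tested.

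MicroRNAs are short RNAs that pair with messenger RNAs and lower their stability or translation. A long primary transcript is cropped to a hairpin in the nucleus, the hairpin is exported and diced in the cytoplasm, and 1 strand is loaded into an Argonaute protein. Pairing runs mainly through the seed, the bases 2 to 8 of the mature RNA, so that microRNAs with the same seed form a family. Many loci lie inside the introns of other genes and share their transcript, and others have a transcript of their own. The array reads RNA over the locus, which may be primary transcript, hairpin or host RNA, and the mature microRNA was not measured.

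The sequences below belong to the loci that the results turn on. The first is the hairpin of MIR3143, the locus with the largest rise, on chromosome 6 (GRCh38.p14, bases 27147626 to 27147688, plus strand), and its mature form was not in the table of RefSeq sequences used here.
MIR3143 hairpin: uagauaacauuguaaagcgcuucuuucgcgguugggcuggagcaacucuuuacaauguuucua
The mature sequences that follow are from RefSeq, 5′ to 3′, with the seed in capitals. The pair from MIR181B1 and MIR4262 shares a seed, and both loci rose under both compounds.
hsa-miR-181b-5p: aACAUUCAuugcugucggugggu
hsa-miR-4262: gACAUUCAgacuaccug
The pair from MIR21 and MIR590 also shares a seed, and their loci moved in opposite directions under HL13.
hsa-miR-21-5p: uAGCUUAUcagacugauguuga
hsa-miR-590-5p: gAGCUUAUucauaaaagugcag
MIR15B, MIR142 and MIR545 are the loci with the largest falls under HL13.
hsa-miR-15b-5p: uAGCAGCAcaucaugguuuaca
hsa-miR-142-3p: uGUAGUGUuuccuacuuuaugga
hsa-miR-545-3p: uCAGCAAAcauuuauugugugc
Members of the let-7 family carry 1 common seed, and the loci of the first 2 below fell.
hsa-let-7d-5p: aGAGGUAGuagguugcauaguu
hsa-let-7i-5p: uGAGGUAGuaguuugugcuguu
hsa-miR-98-5p: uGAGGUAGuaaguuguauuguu
MIR25 and MIR32 share a seed, and the locus of the first fell under both compounds.
hsa-miR-25-3p: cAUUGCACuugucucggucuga
hsa-miR-32-5p: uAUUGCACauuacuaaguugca
The last set holds loci at which HL13 and LBH589 differed most.
hsa-miR-635: aCUUGGGCacugaaacaaugucc
hsa-miR-3192-5p: uCUGGGAGguuguagcaguggaa
hsa-miR-4521: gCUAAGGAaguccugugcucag
In all, 361 of the 452 loci had a symbol in this table.

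The first comparison asked which microRNA loci differed after 24 h of HL13 from DMSO. Of the 452 loci, 98 passed the limma test at an adjusted p under 0.05, 40 of them higher and 58 lower in HL13. This was 21.7% of the loci, against 58.1% of the 16742 clusters tested. By direction, 8.85% of the loci were higher and 12.8% lower, against 29.6% and 28.5% of all clusters tested. A difference of at least 2-fold that also passed the test was seen at 5 loci, or 1.11% against 5.55% of all clusters tested. Of these, 2 were higher and 3 lower in HL13, against 2.74% and 2.81% of all clusters tested. The arrays of the groups did not overlap at 151 loci, or 33.4%, against 66.6% of all clusters tested. For LBH589 against DMSO, 72 loci passed, 39 higher and 33 lower, or 15.9% against 54.1% of all clusters tested. By direction, 8.63% of the loci were higher and 7.30% lower, against 28.0% and 26.1% of all clusters tested. At least 2-fold was reached by 5 loci, or 1.11% against 4.22%, with 1 higher and 4 lower in LBH589, against 1.79% and 2.43% of all clusters tested. The arrays did not overlap at 78 loci, or 17.3%, against 57.4% of all clusters tested. With every array centred on its median, 28 were higher and 41 lower in LBH589, in place of 39 and 33.

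**Figure D1:**
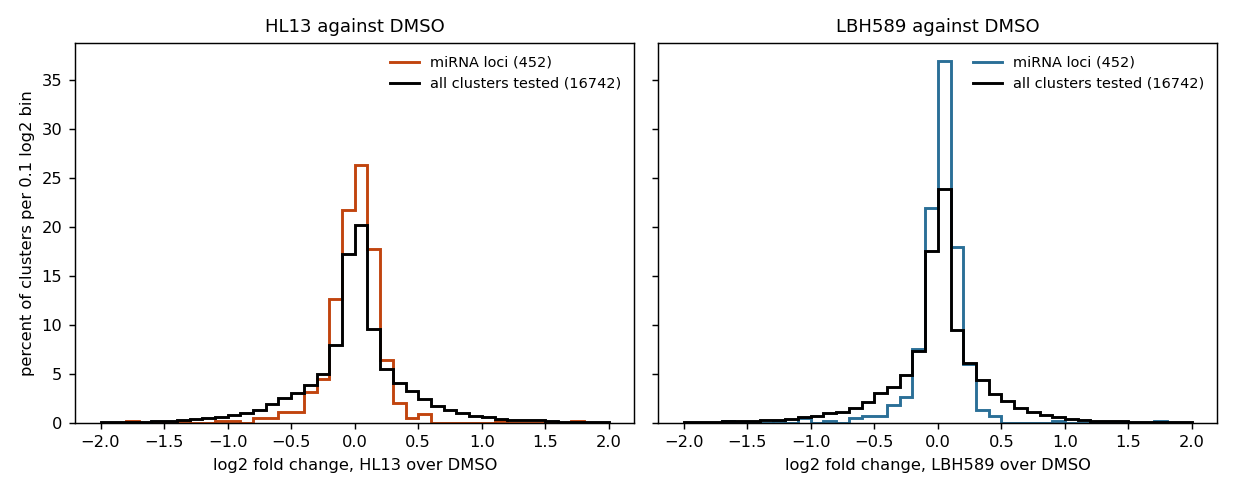
Distribution of log2 fold changes of the 452 microRNA loci (coloured) and of all 16742 clusters tested (black), for HL13 over DMSO on the left and LBH589 over DMSO on the right; the y axis gives the percent of clusters in each bin, and the x axis ends at 2 in either direction. The loci gather closer to 0 than the clusters as a whole, with 86.3% and 60.6% within 0.25 for HL13.

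The changes of the loci were small as a group. The median log2 fold change in HL13 was 0.01 over the loci and 0.01 over all clusters tested, and 390 loci, or 86.3%, lay within 0.25 of no change, against 60.6% of all clusters. For LBH589 the share within 0.25 was 90.7%, against 64.3% of all clusters. The loci were also measured less precisely, with a median SE of 0.07 against 0.04 over all clusters tested, and the part of this precision in the smaller share of calls was not tested. Among the 385 loci above the median on all arrays, 81 passed for HL13, or 21.0%, against 58.2% of the 15810 clusters that met the same condition.

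At 18 loci no array of at least 1 group lay above the array median, 12 of them in HL13, 3 in LBH589 and 6 in DMSO. Such a locus can enter only through the other groups. This held for MIR15B and MIR550A3, low in HL13, and for MIR545, low in HL13 and LBH589. It also held for MIR181B1 and MIR3936, low in DMSO, and for MIR2278, low in HL13 and DMSO. The values of these loci are given here as descriptions beside the test over all clusters. Of the 18, 11 passed in HL13, or 61.1%, and 6 in LBH589, or 33.3%, against 58.1% and 54.1% of all clusters tested. Because of how these loci entered, their shares are no test of them. Those that passed count among the 98 loci for HL13 and the 72 for LBH589. MIR15B, MIR545 and MIR181B1 are among the 5 loci of at least 2-fold in HL13.

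MIR3143 rose most under both compounds. Its values were 10.17, 10.40 and 10.16 in HL13, 10.38, 10.03 and 10.30 in LBH589, and 8.58, 8.46 and 8.42 in DMSO. All arrays of the compounds lay above all DMSO arrays, and the compounds overlapped each other. The log2 fold change was 1.76 ± 0.09 (SE) in HL13 (adjusted p = 5.75e-08) and 1.75 ± 0.09 in LBH589 (adjusted p = 7.93e-08). The locus lies in no annotated gene. Among RefSeq genes of known strand, the nearest on the same strand were the histone genes H4C9 and H2AC11, at 7948 and 14091 bases. Genes of unknown strand were left out of this search, so a nearer gene is possible.

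MIR181B1 encodes a microRNA of the miR-181 family, which is known for its part in lymphocyte development. Its values were 6.34, 6.43 and 6.22 in HL13, 6.14, 6.24 and 6.09 in LBH589, and 5.25, 5.24 and 5.18 in DMSO. The groups of both compounds lay clear of DMSO, by 1.11 ± 0.06 for HL13 (adjusted p = 3.71e-08) and by 0.93 ± 0.06 for LBH589 (adjusted p = 1.74e-07). MIR4262, whose mature RNA has the same seed, stood at 8.74, 8.69 and 8.59 in HL13, at 8.75, 8.52 and 8.42 in LBH589, and at 8.23, 8.37 and 8.26 in DMSO. It was 0.39 ± 0.08 higher in HL13 (adjusted p = 0.0013) and 0.28 ± 0.08 higher in LBH589 (adjusted p = 0.0103). MIR181C and MIR181D, the other loci of this seed, did not pass the test in either compound, with log2 fold changes of 0.01 and 0.00 in HL13.

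MIR21, a locus whose microRNA is abundant in many cancers, rose under HL13. Its values were 6.23, 6.09 and 6.20 in HL13, 5.93, 5.68 and 5.84 in LBH589, and 5.72, 5.68 and 5.36 in DMSO. HL13 lay above both other groups without overlap, whereas LBH589 overlapped DMSO. The log2 fold change was 0.59 ± 0.09 in HL13 (adjusted p = 0.000269) and 0.23 ± 0.09 in LBH589 (adjusted p = 0.0606), and HL13 exceeded LBH589 by 0.36 ± 0.09 (adjusted p = 0.0141). The value in LBH589 passed without DMSO replicate 1 (0.30, adjusted p = 0.031) or LBH589 replicate 2 (0.30, adjusted p = 0.0307). MIR590, which shares the seed of miR-21-5p, fell by 0.37 on the log2 scale in HL13 and by 0.25 in LBH589.

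Further rises were smaller. MIR4263 was 0.57 ± 0.07 higher in HL13 (adjusted p = 2.38e-05) and 0.27 ± 0.07 higher in LBH589 (adjusted p = 0.00439). MIR3936 and MIR659 were 0.56 and 0.51 higher in HL13. MIR3916 was 0.44 ± 0.07 higher in LBH589 and 0.22 ± 0.07 higher in HL13. MIR570, at 0.42 ± 0.16 in HL13, passed with an adjusted p of 0.048. MIR4748 was among the 8 largest rises in LBH589 against DMSO that passed with arrays not overlapping.

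MIR15B had the largest fall under both compounds. It belongs to the miR-15/16 family, which is known to restrain cell cycle genes and BCL2, and it lies in an intron of SMC4, a condensin subunit. Its values were 5.21, 5.00 and 5.08 in HL13, 5.02, 5.47 and 5.20 in LBH589, and 7.00, 6.77 and 6.78 in DMSO. Every array of a compound lay more than 1 log2 unit below every DMSO array. The log2 fold change was -1.76 ± 0.11 in HL13 (adjusted p = 1.48e-07) and -1.62 ± 0.11 in LBH589 (adjusted p = 3.39e-07). MIR16-2, next to it on the same transcript, passed the array median on only 2 arrays and is taken up with the dim loci.

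MIR142, a microRNA locus active in blood cells, had the second largest fall in HL13. Its values were 6.85, 6.76 and 6.52 in HL13, 6.90, 6.85 and 7.10 in LBH589, and 8.09, 7.96 and 8.04 in DMSO. The compounds overlapped each other and lay well below DMSO. The log2 fold change was -1.32 ± 0.09 in HL13 (adjusted p = 3.13e-07) and -1.08 ± 0.09 in LBH589 (adjusted p = 1.76e-06).

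MIR545 and MIR550A3 also fell in both. MIR545, on the X chromosome, stood at 4.59, 4.54 and 4.73 in HL13, at 4.38, 4.86 and 4.57 in LBH589, and at 5.50, 5.65 and 5.84 in DMSO. Its DMSO arrays were the only ones above the array median, and the fold changes were -1.05 ± 0.12 in HL13 (adjusted p = 2.03e-05) and -1.06 ± 0.12 in LBH589 (adjusted p = 2.06e-05). MIR550A3 changed by -0.998 ± 0.12 in HL13 and -0.90 ± 0.12 in LBH589. MIR573 followed with -0.74 ± 0.15 and -0.40 ± 0.15, MIR4690 with -0.60 ± 0.10 in either compound, and MIR548A2 with -0.51 ± 0.12 and -0.67 ± 0.12. Another cluster under the symbol MIR548A2, on another chromosome and below the limit, went the other way in the limma fit with no filter. It stood at 0.47 in HL13 (adjusted p = 0.0213) and 0.23 in LBH589 (adjusted p = 0.252).

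**Figure D2:**
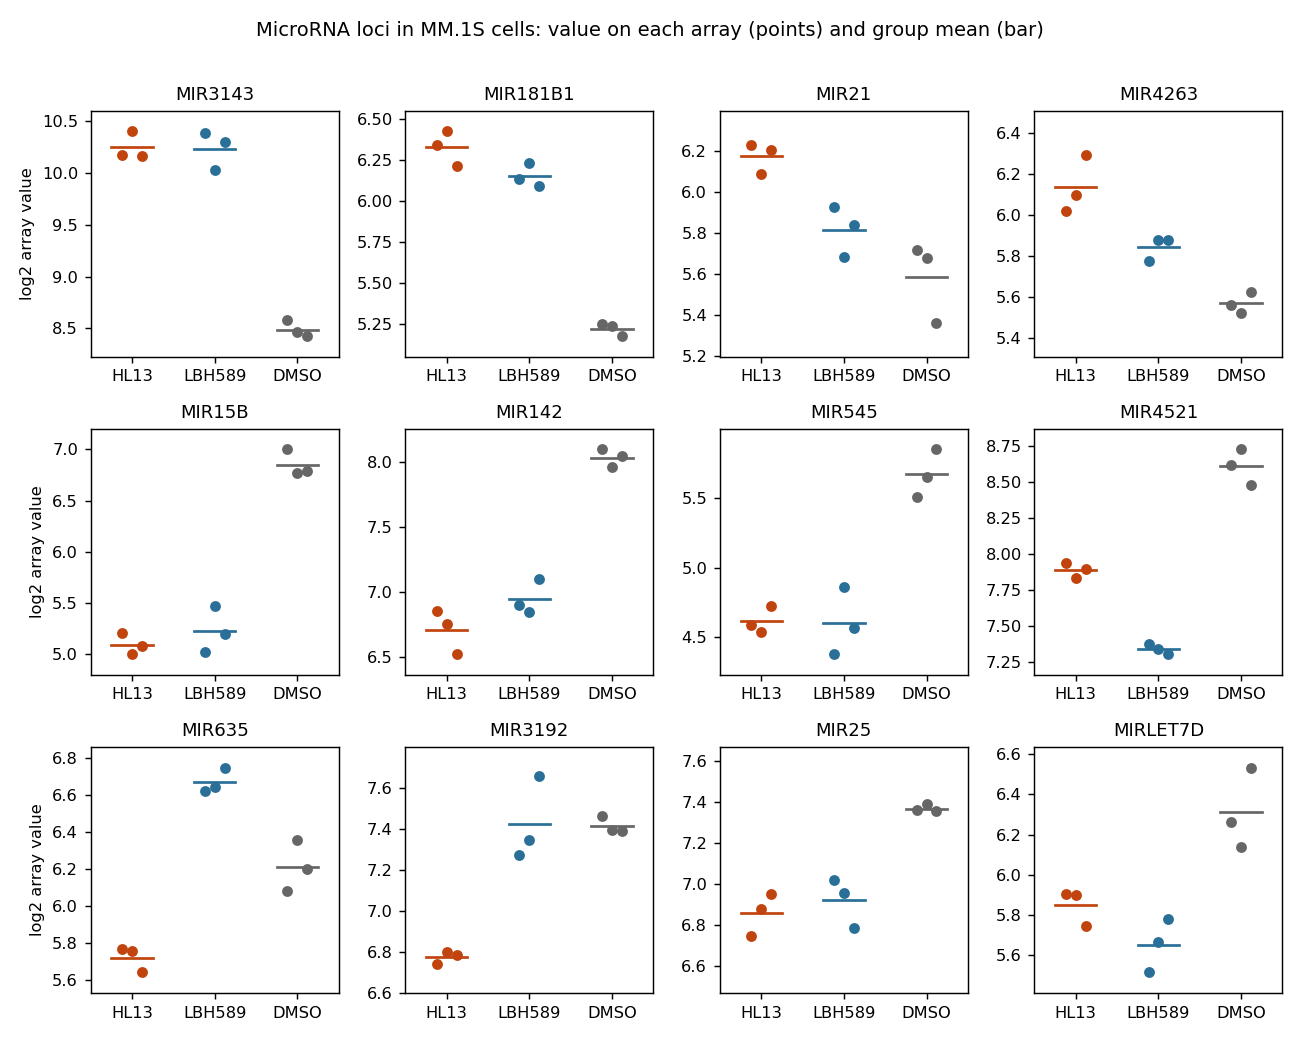
Log2 array values of 12 named microRNA loci, each in a panel of its own with its own y axis; points are the 3 arrays of HL13, LBH589 and DMSO, and the bar is the group mean. MIR3143 and MIR181B1 lie higher in both compounds than in DMSO, MIR15B, MIR142 and MIR545 lower, and MIR635 lies lower in HL13 and higher in LBH589.

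The let-7 family, whose mature forms are known to repress growth genes such as RAS and MYC, had 3 loci tested of 10 measured. MIRLET7D stood at 5.91, 5.90 and 5.75 in HL13, at 5.52, 5.67 and 5.78 in LBH589, and at 6.26, 6.14 and 6.53 in DMSO. It was lower on every array of either compound, by -0.46 ± 0.10 in HL13 (adjusted p = 0.00212) and -0.66 ± 0.10 in LBH589 (adjusted p = 0.000198). MIRLET7I changed by -0.27 ± 0.06 in HL13 (adjusted p = 0.00196) and by -0.34 ± 0.06 in LBH589 (adjusted p = 0.000434). MIR98, of the same seed, stood at 0.07 ± 0.09 and -0.04 ± 0.09 and did not pass. MIR4458, a tested locus of this seed that is not in the list, did not pass in HL13.

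The 2 tested loci listed for the miR-17-92 group and its paralogs both lie inside MCM7, a subunit of the replicative helicase. MIR92B, a tested locus with the seed of MIR25, is not in this list and did not pass in HL13. MIR25 stood at 6.75, 6.87 and 6.95 in HL13, at 7.02, 6.95 and 6.78 in LBH589, and at 7.36, 7.39 and 7.35 in DMSO. It lay below DMSO on every array, by -0.51 ± 0.06 in HL13 (adjusted p = 5.16e-05) and -0.45 ± 0.06 in LBH589 (adjusted p = 0.000152). MIR106B stood at 5.56, 5.66 and 5.67 in HL13, at 5.98, 5.61 and 5.60 in LBH589, and at 5.77, 5.77 and 5.73 in DMSO, and did not pass, with -0.12 ± 0.09 and -0.02 ± 0.09. All its HL13 arrays lay below all DMSO arrays, and limma called it in HL13 when only these groups were fitted (adjusted p = 0.0179). Without LBH589 replicate 1 it passed in HL13 (-0.12, adjusted p = 0.0114) and in LBH589 (-0.15, adjusted p = 0.00876). MCM7 itself changed by -1.22 ± 0.03 in HL13 and -1.002 ± 0.03 in LBH589.

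Among 8 tested loci of microRNAs linked to B cells, plasma cells and blood formation, 2 rose and 1 fell in HL13, and 1 rose and 1 fell in LBH589. Of all clusters tested, 29.6% were higher and 28.5% lower in HL13, and 28.0% and 26.1% in LBH589. The same shares stand beside the groups that follow. The loci that passed were MIR181B1, MIR21 and MIR142 in HL13. MIR146A, a locus that answers to NF-kB, stood at 0.06 ± 0.03 in HL13 and 0.00 ± 0.03 in LBH589. MIR34A, a target of p53, stood at 0.01 ± 0.03 and 0.02 ± 0.03, and none of the 3 tested loci of p53-linked microRNAs passed limma's test against DMSO, with 0 also at an unadjusted p under 0.05. Of 46 measured loci listed for the 14q32 region, which holds an imprinted cluster, 10 were tested, and none passed limma's test against DMSO, with 0 also at an unadjusted p under 0.05. MIR2392, a tested locus 11534 bases from the gene MEG3, is not in the list. In the run of neighbouring hairpins that holds MIR494, the list leaves out 3 tested loci, MIR323B, MIR1193 and MIR541. MIR323B stood at 5.42, 5.58 and 5.42 in HL13, at 5.79, 5.48 and 5.61 in LBH589, and at 5.21, 5.48 and 5.47 in DMSO. Its groups overlapped, and it passed in LBH589 by 0.24 ± 0.09 (adjusted p = 0.0498) but not in HL13, while MIR1193 and MIR541 did not pass in either compound. Of the primate cluster on chromosome 19, 43 loci were measured and none reached the array median on 3 arrays. None of the 4 tested loci of neuronal microRNAs and none of the 5 of the miR-125, miR-99, miR-193 and miR-365 group passed limma's test against DMSO, again with 0 at an unadjusted p under 0.05.

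Both comparisons use the same DMSO arrays, so their counts are set side by side only. Of the loci, 21 were higher in both, or 4.65% against 23.2% of all clusters tested, and 25 were lower in both, or 5.53% against 22.8%. A further 3 were lower in HL13 and higher in LBH589, or 0.664% against 0.782%. Of the others, 19 were higher and 30 lower in HL13 alone, or 4.20% and 6.64% against 6.04% and 4.95% of all clusters. In LBH589 alone 15 were higher and 8 lower, or 3.32% and 1.77% against 4.05% and 2.94%, while 331 passed in neither, or 73.2% against 34.9%. Passing for 1 compound alone does not show that the compounds differ.

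The difference between HL13 and LBH589 at the same dose and time was tested directly, over 1 pair of compounds. It passed at 36 loci, 7 higher and 29 lower in HL13, or 7.96% against 32.7% of all clusters tested. By direction, 1.55% of the loci were higher and 6.42% lower, against 16.0% and 16.7% of all clusters tested. Without LBH589 replicate 1 the split was 22 higher and 24 lower in HL13. This was 4.87% and 5.31% of the loci, against 16.3% and 17.1% of all clusters tested. None of these differences reached 2-fold, against 0.281% of all clusters tested. The arrays did not overlap at 68 loci, or 15.0%, against 42.3% of all clusters tested. The count was 19 when adjusted over all clusters of the table and 22 without HL13 replicate 3.

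MIR635 differed most. It lies in an intron of WIPI1, a gene of autophagosome formation. Its values were 5.76, 5.76 and 5.64 in HL13, 6.62, 6.64 and 6.75 in LBH589, and 6.08, 6.36 and 6.20 in DMSO. The 3 groups did not overlap, with DMSO between the compounds. HL13 lay below LBH589 by -0.95 ± 0.07 (adjusted p = 4.59e-06), with -0.49 ± 0.07 against DMSO for HL13 (adjusted p = 9.18e-05) and 0.46 ± 0.07 for LBH589 (adjusted p = 0.000178).

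MIR3192 and MIR4755 were lower in HL13 than in either other group. MIR3192 stood at 6.74, 6.80 and 6.78 in HL13, at 7.27, 7.34 and 7.66 in LBH589, and at 7.46, 7.39 and 7.39 in DMSO. HL13 lay below LBH589 by -0.65 ± 0.08 (adjusted p = 0.000182), and LBH589 lay at 0.01 ± 0.08 from DMSO (adjusted p = 0.941). Without LBH589 replicate 3 this last value became -0.11 (adjusted p = 0.0361). MIR4755 differed by -0.53 ± 0.11 between the compounds (adjusted p = 0.00369), with -0.53 ± 0.11 against DMSO in HL13 and 0.00 ± 0.11 in LBH589.

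MIR4521 went the other way. Its values were 7.94, 7.83 and 7.89 in HL13, 7.37, 7.33 and 7.30 in LBH589, and 8.62, 8.72 and 8.48 in DMSO. Both compounds lay below DMSO and LBH589 lay lowest, with no overlap among the groups. The log2 fold change was -0.72 ± 0.06 in HL13 (adjusted p = 1.28e-06) and -1.27 ± 0.06 in LBH589 (adjusted p = 2.25e-08), and HL13 exceeded LBH589 by 0.55 ± 0.06 (adjusted p = 5.51e-05). MIR5047 showed the same order, with 0.30 ± 0.04 between the compounds (adjusted p = 0.000217). MIR32, which shares its seed with MIR25, stood at -0.06 in HL13 and 0.24 in LBH589 against DMSO and was lower in HL13 than in LBH589.

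MIR3142 and MIR146A lie in 1 host gene, MIR3142HG, and differed in their values. MIR3142 stood at 6.43, 6.36 and 6.44 in HL13, at 6.59, 6.74 and 6.86 in LBH589, and at 6.70, 6.61 and 6.82 in DMSO, and was lower in HL13 than in LBH589 by -0.32 ± 0.07 (adjusted p = 0.00515). MIR146A differed by 0.06 ± 0.03 between the compounds (adjusted p = 0.175). MIR449B differed by -0.22 ± 0.03 (adjusted p = 0.000444).

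For loci that did not pass, the interval shows what size of difference the data allow. At MIR3143 the compounds differed by 0.01, with a 95% interval from -0.20 to 0.22, and at MIR15B by -0.14, from -0.37 to 0.10.

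**Figure D3:**
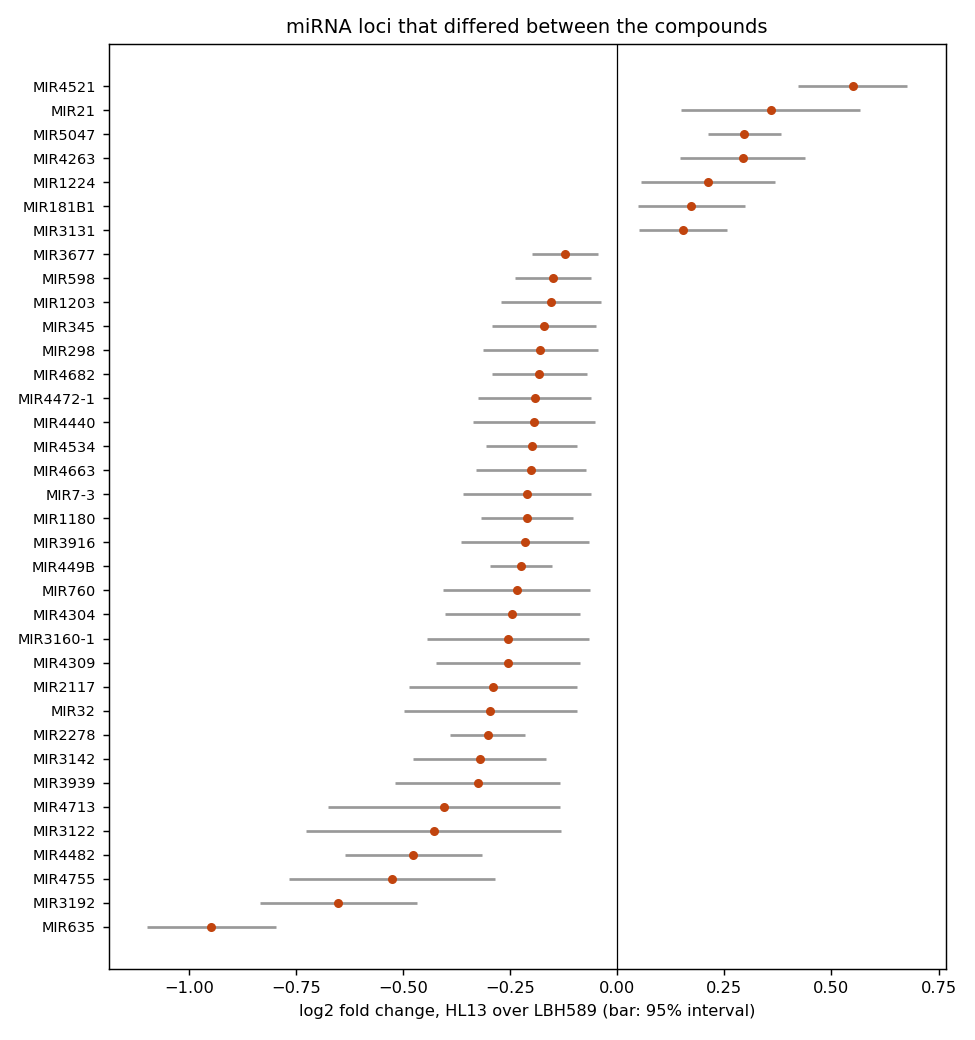
Log2 fold change of HL13 over LBH589 (x axis) for the 36 microRNA loci that passed the test between the compounds, sorted by size; points are estimates and bars their 95% intervals. 29 loci lie left of 0, lower in HL13, and 7 lie right of it; without LBH589 replicate 1, 24 loci passed as lower and 22 as higher.

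Where a locus lies inside a gene on the same strand, the cluster of that host gene gives a second measurement on the same arrays. A tested host cluster was found for 165 loci. In HL13, 33 of these loci passed, and at 21 of them the host passed as well, 17 in the same direction and 4 in the opposite one. At 84 further loci the host passed and the locus did not, so that the host passed at 63.6% of the loci that passed and at 63.6% of those that did not. In LBH589, 25 loci passed, 17 together with the host, 15 in the same direction and 2 in the opposite one, and the host passed at 70 of the 140 loci that did not pass. Of the loci with a tested host 20.0% passed in HL13, against 22.6% of those without one. Across the 165 pairs, Pearson's r of the log2 fold changes was 0.31 for HL13 and 0.34 for LBH589, given as a description across loci that share the arrays.

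MIR635 and WIPI1 moved closely alike. WIPI1 stood at 8.22, 8.25 and 8.34 in HL13, at 9.24, 9.20 and 9.19 in LBH589, and at 8.70, 8.80 and 8.77 in DMSO, which gives -0.49 ± 0.04 in HL13, 0.45 ± 0.04 in LBH589 and -0.94 ± 0.04 between the compounds (adjusted p = 3.31e-07). The order of the groups was that of MIR635. POLR3F, a subunit of RNA polymerase III and host of MIR3192, changed by -0.57 ± 0.06 in HL13 and -0.01 ± 0.06 in LBH589, beside -0.64 and 0.01 at the locus. SMC4, host of MIR15B, changed by -0.89 ± 0.06 in HL13 and -0.85 ± 0.06 in LBH589, beside -1.76 and -1.62 at the locus.

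Other pairs parted. BABAM2, a subunit of a BRCA1 complex and host of MIR4263, changed by -0.29 ± 0.03 in HL13 (adjusted p = 2.05e-05) and -0.34 ± 0.03 in LBH589, whereas the locus rose. RALY, an RNA-binding protein gene and host of MIR4755, stood at 0.00 ± 0.03 in HL13, beside -0.53 at the locus. MIR1229 in MGAT4B, MIR3153 in CKS2 and MIR7-3 in MIR7-3HG were the other loci opposite to the host in HL13. DOCK2, host of MIR378E, changed by -1.09 ± 0.03 in HL13, beside -0.35 at the locus. PCNX3, host of MIR4690, changed by -0.32 ± 0.03 in HL13 and -0.04 ± 0.03 in LBH589, beside -0.60 at the locus in either. How far the probes of locus and host lie on the same transcript was not analysed here.

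**Figure D4:**
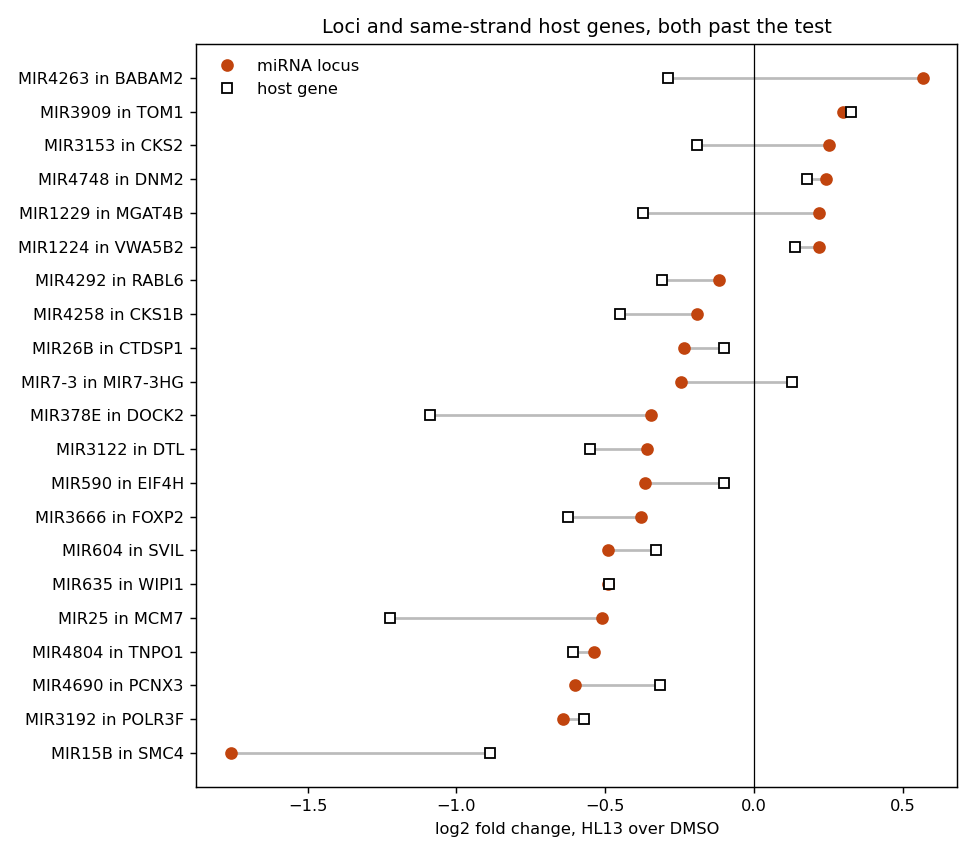
Log2 fold change of HL13 over DMSO (x axis) at 21 microRNA loci (filled points) and their same-strand host genes (open squares), both past the test, sorted by the value of the locus; the grey line joins each pair. 17 pairs lie on the same side of 0 and 4 pairs, among them MIR4263 in BABAM2, on opposite sides.

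The genes that make, use and degrade microRNAs were measured on the same arrays. Of 45 listed genes, 34 were tested, and in HL13 9 were higher and 19 lower, against 29.6% higher and 28.5% lower among all clusters tested. In LBH589, 10 were higher and 14 lower, against 28.0% and 26.1%. Between the compounds, 4 were higher and 12 lower in HL13, against 16.0% and 16.7%. The Argonaute genes and DGCR8 had no cluster with 1 symbol and were not analysed here.

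The nuclear steps were lower in HL13 as far as they passed, with 6 of 8 genes lower and none higher. In LBH589, 5 were lower and 2 higher. Over all clusters tested, 28.5% were lower and 29.6% higher in HL13, and 26.1% and 28.0% in LBH589. Of the 6 lower in HL13, NCBP1, of the nuclear cap-binding complex, and SRRT, a partner of that complex, lost their call under quantile normalization. Both then stood at -0.05 (adjusted p = 0.266 for NCBP1 and 0.342 for SRRT). They also lost it when single arrays were left out. XPO5, the exporter of the hairpin, stood at 8.04, 8.04 and 8.05 in HL13, at 8.43, 8.48 and 8.49 in LBH589, and at 8.60, 8.62 and 8.59 in DMSO. The 3 groups stood apart, with HL13 lowest, at -0.56 ± 0.03 against DMSO (adjusted p = 4.07e-08), LBH589 at -0.13 ± 0.03 (adjusted p = 0.00209), and a difference of -0.42 ± 0.03 between the compounds (adjusted p = 3.11e-06). RAN, the GTPase that drives this export, changed by -0.62 ± 0.04 and -0.67 ± 0.04, and DDX17, a helicase of the cropping complex, by -0.63 ± 0.04 and -0.90 ± 0.04. DROSHA, the nuclease that crops the primary transcript, stood at -0.07 ± 0.04 in HL13 (adjusted p = 0.15) and rose by 0.21 ± 0.04 in LBH589 (adjusted p = 0.00104).

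Of 13 genes of the cytoplasmic steps, 5 were higher and 8 lower in HL13, and 3 and 6 in LBH589. The shares over all clusters tested were 29.6% higher and 28.5% lower in HL13, and 28.0% and 26.1% in LBH589. DICER1, which dices the hairpin, stood at 7.37, 7.44 and 7.38 in HL13, at 7.51, 7.60 and 7.63 in LBH589, and at 8.33, 8.27 and 8.22 in DMSO. Both compounds lay well below DMSO, HL13 by -0.88 ± 0.04 (adjusted p = 2.94e-08) and LBH589 by -0.70 ± 0.04 (adjusted p = 2.15e-07), and HL13 lay lower than LBH589 by -0.18 ± 0.04 (adjusted p = 0.00823). DDX6, a helicase of translational repression, changed by -0.97 ± 0.04 and -1.02 ± 0.04. TNRC6B, a partner of Argonaute, rose by 0.44 ± 0.05 and 0.33 ± 0.05, and PAN3, of a deadenylase, changed by -0.40 ± 0.06 and -0.48 ± 0.06.

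Of 13 tested genes of modification and turnover, 4 were higher and 5 lower in HL13, and 5 and 3 in LBH589. Beside this stand 29.6% higher and 28.5% lower of all clusters tested in HL13, and 28.0% and 26.1% in LBH589. PNPT1, an exoribonuclease, stood at 7.57, 7.58 and 7.52 in HL13, at 8.10, 8.18 and 8.26 in LBH589, and at 8.87, 8.88 and 8.81 in DMSO. The groups did not overlap, and HL13 lay below LBH589 by -0.62 ± 0.04 (adjusted p = 3.93e-06). ZSWIM8, the ligase adaptor of target-directed microRNA decay, stood at 7.40, 7.38 and 7.41 in HL13, at 7.97, 7.92 and 7.93 in LBH589, and at 7.41, 7.34 and 7.35 in DMSO. It rose in LBH589 by 0.57 ± 0.03 (adjusted p = 8.78e-08) and stood at 0.03 ± 0.03 in HL13 (adjusted p = 0.507), a difference of -0.54 ± 0.03 (adjusted p = 1.18e-06). ADARB1, an editing enzyme, rose by 0.65 ± 0.04 in HL13 and 0.32 ± 0.04 in LBH589, and TENT4B, a terminal transferase, by 0.21 ± 0.04 and 0.40 ± 0.04.

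**Figure D5:**
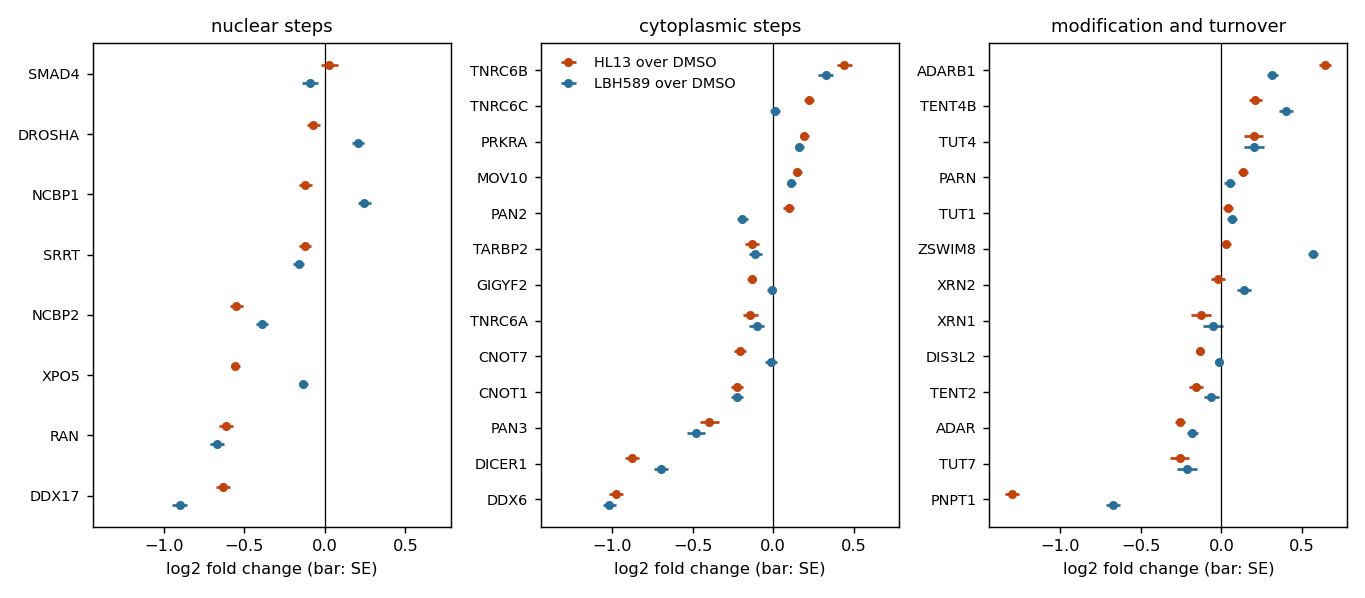
Log2 fold changes over DMSO of the 34 tested genes of microRNA production and turnover, in HL13 (orange) and LBH589 (blue), with the SE as bar; the panels hold 8 nuclear, 13 cytoplasmic and 13 turnover genes, sorted by the value in HL13. DICER1, DDX6 and PNPT1 lie far left of 0 in both compounds, and ZSWIM8 lies at 0.57 in LBH589 and at 0.03 in HL13.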

How the data were processed

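Total RNA of MM.1S cells was labelled with biotin and read on an Affymetrix human whole-transcript array, 3 arrays per group. The table deposited by the authors gives each transcript cluster a log2 intensity on every array, and no further scaling was applied. How probes were summarised and normalized is not stated in the labels or methods. The near-equal array medians are those of arrays normalized to each other, which can hide a change shared by most clusters. The study's methods describe sequencing of RNA, not these arrays.

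Clusters were named from the platform annotation: 23781 had 1 symbol, 1543 several and 45199 none, and 226 of those with several list a microRNA locus and were not used. The 16742 clusters with 1 symbol above the array median on at least 3 of 9 arrays were fitted with lmFit and eBayes of limma 3.58.1 (R 4.3.3), with 1 mean per group over all arrays, with Benjamini-Hochberg adjustment over all of them for each comparison. The fit was tested on simulated data. Clusters of 1 gene were not merged: 9 symbols had more than 1 locus, and 17 loci lie on alternative haplotypes of chromosome 6. Precision is limited by the number of arrays, and no column of values was set aside.

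The members, gene lists and tests were chosen with earlier results of these data known. Named loci are, per comparison, the 8 largest rises and falls that passed with arrays not overlapping, and all listed families; up to 5 genes per pathway list were named, with host genes. Loci named outside this rule, such as MIR590, MIR32, MIR323B, DROSHA, SRRT, the dim loci and loci opposite to their hosts, were chosen after their values were seen. Alternatives were quantile normalization, centring, other filters, 1 cluster per symbol, all clusters of the table, the groups of 1 comparison alone, a replicate block, an intensity trend and leaving out each array; leaving out the haplotype clusters was added after seeing the data.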

Additional observations from a re-analysis of the deposited data

Results flagged for a closer look

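Loci and genes that passed in opposite directions in the compounds, with a difference between the compounds that passed as well, were MIR635, MIR4482 and MIR2278 among the loci and NCBP1 and PAN2 among the genes of the microRNA pathway. MIR635 differed by -0.95 between HL13 and LBH589, with -0.49 in HL13 and 0.46 in LBH589 against DMSO. MIR4482 differed by -0.48, with -0.25 and 0.23, and its HL13 arrays overlapped those of DMSO; it lost its call in HL13 without DMSO replicate 3 (-0.21, adjusted p = 0.0537), and in LBH589 without DMSO replicate 2 (0.16, adjusted p = 0.0791) or LBH589 replicate 3 (0.21, adjusted p = 0.0615). MIR2278 differed by -0.30, with -0.14 and 0.16. It passed the array median in LBH589 only and entered through that group alone. The values of MIR2278 are thus a description and no test. NCBP1, of the nuclear cap-binding complex, differed by -0.37, with -0.12 and 0.25. PAN2, of a deadenylase, differed by 0.29, with 0.10 and -0.19. The values of NCBP1 and PAN2 in HL13 against DMSO lost their call under most of the fits that left out a DMSO or HL13 array, with adjusted p of up to 0.0873 for NCBP1 and 0.113 for PAN2 among these. NCBP1 also lost it under quantile normalization (-0.0463, adjusted p = 0.266) and PAN2 with arrays centred on their medians (0.0682, adjusted p = 0.169), so the opposite directions of these genes do not hold under every alternative. Outliers were not sought, since each group has 3 arrays.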

How the results depend on the processing

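The counts of microRNA loci stayed within 1.5 times the value given under most alternatives. For HL13 against DMSO the count was 172 without the filter, where 1087 clusters were tested in place of 452. Between HL13 and LBH589 it was 19 when adjusted over all clusters of the table. Leaving out each array gave 82 to 125 loci for HL13, 56 to 88 for LBH589 and 22 to 46 between the compounds, the lowest without HL13 replicate 3; between the compounds the split of 7 higher and 29 lower became 22 and 24 without LBH589 replicate 1, 5 and 17 without HL13 replicate 3, and 4 and 21 without HL13 replicate 1 or 2; for the genes of the microRNA pathway it gave 24 to 29, 21 to 25 and 15 to 19. Without the clusters of alternative haplotypes the counts stayed at 98, 72 and 36. With the replicate number as a block, the counts were 96, 66 and 34. Deviations from the group mean correlated at -0.30 to 0.06 between arrays of the same number, and at -0.19 to 0.31 between others. With 3 arrays a group, this cannot decide whether the numbers pair the samples. Of 70 results of named loci that passed, 53 kept their call and direction under every alternative. MIR570, MIR3122, MIR659, MIR573, MIR345 and MIR4713 lost a call under several alternatives. MIR21 lost it between the compounds without HL13 replicate 1 (0.33, adjusted p = 0.0533) or LBH589 replicate 2 (0.29, adjusted p = 0.0571), and passed in LBH589 against DMSO with the replicate block (0.23, adjusted p = 0.0461). MIR181B1 lost its call between the compounds under several, but not against DMSO. MIR3916 lost its call in HL13 against DMSO without DMSO replicate 2 (0.17, adjusted p = 0.0613) or HL13 replicate 3 (0.19, adjusted p = 0.0616). MIR3192 changed sign in LBH589 against DMSO, to -0.11, without LBH589 replicate 3, and its range on leaving out each array was -0.11 to 0.0854. The cause of these shifts was not tested.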

Other observations

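The 635 microRNA clusters below the limit were tested only in the fit with no filter, and their values lie near or below the array median. In that fit, 87 of them passed in HL13 against DMSO, or 13.7%, against 15.7% of all 7039 clusters below the limit. Of these, 10 were higher and 77 lower, or 1.57% and 12.1%, against 9.77% and 5.94% of those clusters. In LBH589, 49 passed, or 7.72% against 9.73%, with 17 higher and 32 lower, or 2.68% and 5.04% against 6.01% and 3.72%. MIR29A, of a family known to repress collagen genes and MCL1, stood at 3.56, 3.33 and 3.55 in HL13, at 3.49, 3.46 and 3.89 in LBH589, and at 4.91, 4.51 and 5.24 in DMSO, which gives -1.41 in HL13 (adjusted p = 0.00014) and -1.27 in LBH589 (adjusted p = 0.00031). MIR16-2, the partner of MIR15B, stood at 4.23, 4.65 and 4.56 in HL13, at 4.36, 4.52 and 4.65 in LBH589, and at 5.63, 5.23 and 5.47 in DMSO, or -0.96 and -0.93. MIRLET7F1 stood at -0.45 in HL13 and -0.43 in LBH589. MIR4520-1 rose by 1.07 in HL13 (adjusted p = 2e-06) and by 1.001 in LBH589.

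The MIR548 family, a large set of primate loci with near-identical hairpins whose probes may not tell copies apart, was picked after its values were seen. Of its 30 loci, 6 were higher and 1 lower in HL13, and 1 was higher and 2 lower in LBH589. This was 23.3% of the family against 21.6% of the other loci in HL13, and 10.0% against 16.4% in LBH589, so its share of calls in HL13 was near that of the others. Its median log2 fold change was 0.15 in HL13 and 0.06 in LBH589, beside 0.01 and 0.03 over the other loci.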
